A study of Homo sapiens with 12 samples.

Results

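The 10 genes described here are ATF4 and a set of stress effectors whose transcription it is known to drive or share: ATF4, ATF5, DDIT3, DDIT4, CHAC1, TRIB3, SESN2, NUPR1, GDF15 and VLDLR. They were picked by symbol from a deposited table of 21574 features, and all 10 passed the filter on low values that left 13071 features for testing. The choice was made with earlier results of these libraries in view, so differences between the TMEM216 and Ctrl populations are given as a description. Where genes past a threshold are counted in these comparisons, the count stands beside the share of all features and supports nothing. RNA-seq was done on MDA-231-LM2 cells, a subline of the human breast cancer cells MDA-MB-231 that was selected for its ability to colonise the lung. The samples are labelled as this cell line, while the protocol speaks of RNA taken from tissue, and which of these holds cannot be told from the labels. The 4 groups of 3 libraries each are TMEM216 cells with IGF1 (TMEM216+IGF1), control cells with IGF1 (Ctrl+IGF1), TMEM216 cells without IGF1 (TMEM216) and control cells without IGF1 (Ctrl). The TMEM216 protein sits in the membrane at the base of cilia, and IGF1 is a growth factor that acts through the receptor IGF1R. How the TMEM216 and Ctrl populations were made, whether either is a clone, the dose and time of IGF1, and whether replicates were separate cultures are not given in the labels. The spread behind each p may thus be technical.

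The integrated stress response is a shared route by which cells answer lack of amino acids, misfolded proteins in the endoplasmic reticulum, lack of haem and double-stranded RNA. Each stress activates a kinase that phosphorylates the translation factor eIF2, which lowers general protein synthesis while translation of the ATF4 mRNA goes up through its upstream reading frames. ATF4 protein then pairs with C/EBP factors on composite sites in the DNA and raises genes for amino acid supply, redox balance and, under lasting stress, cell death. Because much of this control is on translation, the level of ATF4 mRNA is not a measure of ATF4 protein.

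The composite site, called CARE, was searched as TGATGNAA on both strands of the 250 bases before each RefSeq gene start (GRCh38.p14). Of the 10 genes, 9 had such a window, and NUPR1 had none. The windows of CHAC1 and ATF4 lay wholly within annotated exons of the same gene, and those of GDF15, TRIB3 and ATF5 at least partly. The windows of DDIT4 and DDIT3 held short stretches of exon, and those of SESN2 and VLDLR held none. CHAC1 was the single member whose window held the core, against 3.89% of 27305 genes with a window. Among genes known to work with ATF4, the windows of 3 of 10 bZIP partners (ATF3, CEBPG and JDP2) and of 4 of 20 amino acid genes (ASNS, SLC1A5, GARS1 and AARS1) held the core, and the others did not. Of the other lists described below, the core was in 1 of 19 other stress effectors and 1 of 10 eIF2, eIF2B and phosphatase subunits. It was in 1 of 16 IRE1 and ATF6 branch genes and 1 of 15 mTORC1 pathway genes. It was in 0 of 9 eIF2 kinases and co-factors and 0 of 7 relatives and ligands of VLDLR. The sites of ATF3, CEBPG, ASNS and SLC1A5 are shown beside that of CHAC1 as examples of windows with the core. Each line gives 30 bases, 5′ to 3′, on the strand that reads TGATGNAA, with the core in capitals.

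CHAC1, chr15:40953251-40953280, minus strand: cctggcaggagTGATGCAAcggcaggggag

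ATF3, chr1:212565205-212565234, plus strand: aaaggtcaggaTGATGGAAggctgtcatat

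CEBPG, chr19:33374060-33374089, plus strand: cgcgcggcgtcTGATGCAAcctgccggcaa

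ASNS, chr7:97872458-97872487, minus strand: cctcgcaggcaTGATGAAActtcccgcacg

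SLC1A5, chr19:46784893-46784922, minus strand: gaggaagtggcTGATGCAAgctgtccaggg

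Of the sites shown, those of CHAC1, CEBPG and SLC1A5 carried the form TGATGCAA. So did the sites of AARS1, PPP1R15B, FGF21, HERPUD1 and TSC2 from the other lists, which are not shown. Over all genes with a window, 0.967% held this form. The cAMP response element TGACGTCA was in 0 of the 9 members' windows, against 2.03% of all genes, and the endoplasmic reticulum stress element was in 0 of 9, against 0.0916%. The AP-1 element TGANTCA was in the windows of ATF5 and DDIT3, against 8.06% of all genes. A match of letters is not a measured site, and a window without one says nothing about a factor's binding elsewhere.

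Expression was deposited as TPM, a transcript abundance corrected for length and scaled to a fixed total per library, so the depth of the libraries is unknown and counting error cannot be given. TMEM216 itself averaged 226 ± 5.70 TPM in TMEM216+IGF1 libraries and 27.3 ± 2.60 TPM in Ctrl+IGF1 libraries, and 212 ± 44.1 TPM in TMEM216 libraries and 26.4 ± 3.25 TPM in Ctrl libraries (SD, n = 3 each). The labels do not say which direction was intended. All 6 markers of mesenchymal breast cancer lines were expressed, with a summed level of 6680 to 8400 TPM. ESR1, PGR, FOXA1 and CDH1 among 6 luminal markers did not pass the filter, and nor did 4 of 5 fibroblast markers. The other luminal markers did pass, ERBB2 at 32.6 to 39.4 TPM and GATA3 at 6.47 to 8.21 TPM by group. PDGFRB, the fibroblast marker that passed, averaged 0.861 to 1.16 TPM by group. Of the leukocyte markers PTPRC, CD3E and LYZ did not pass, while CD68 averaged 175 to 207 TPM and CD14 1.73 to 2.87 TPM by group, neither past an adjusted p of 0.05 (limma) between TMEM216 and Ctrl cells. Of 5 endothelial markers CDH5, VWF and TEK did not pass the filter, KDR averaged 1.59 to 2.39 TPM by group, and PECAM1 averaged 1.83 ± 0.313 TPM in TMEM216+IGF1 and 0.766 ± 0.113 TPM in Ctrl+IGF1 libraries (SD, n = 3 each). PECAM1, named after its values were seen, was past this threshold there, and in 3 of 12 fits with 1 library left out, and its part in the members' differences was not tested. Ctrl+IGF1 replicate 3 and TMEM216 replicate 1 lay farthest out at the low end of the first principal component. The share of TPM in ribosomal protein genes was 15.6% for Ctrl+IGF1 replicate 3 and between 11.6% and 13.7% elsewhere. In bulk RNA, fewer cells expressing a gene and less RNA per cell cannot be told apart.

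The members spanned a wide range of levels. ATF4 averaged 662 TPM over the 12 libraries, at percentile 98.5 of the 13071 tested features, and DDIT4 averaged 173 TPM, at percentile 91.9. DDIT3 and ATF5 followed at 69.8 and 56.8 TPM. The other members averaged 20.4 TPM (TRIB3), 15.1 TPM (CHAC1), 12.0 TPM (SESN2), 11.8 TPM (NUPR1), 9.66 TPM (VLDLR) and 7.55 TPM (GDF15), so GDF15 had the lowest level of the set. The coefficient of variation between libraries of a group, averaged over the 4 groups, was lowest for ATF4 at 5.29% and highest for NUPR1 at 23.9%. Groups differed in this, and the SD of ATF4 was 3.94 TPM in Ctrl and 86.5 TPM in Ctrl+IGF1 libraries.

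**Figure D1:**
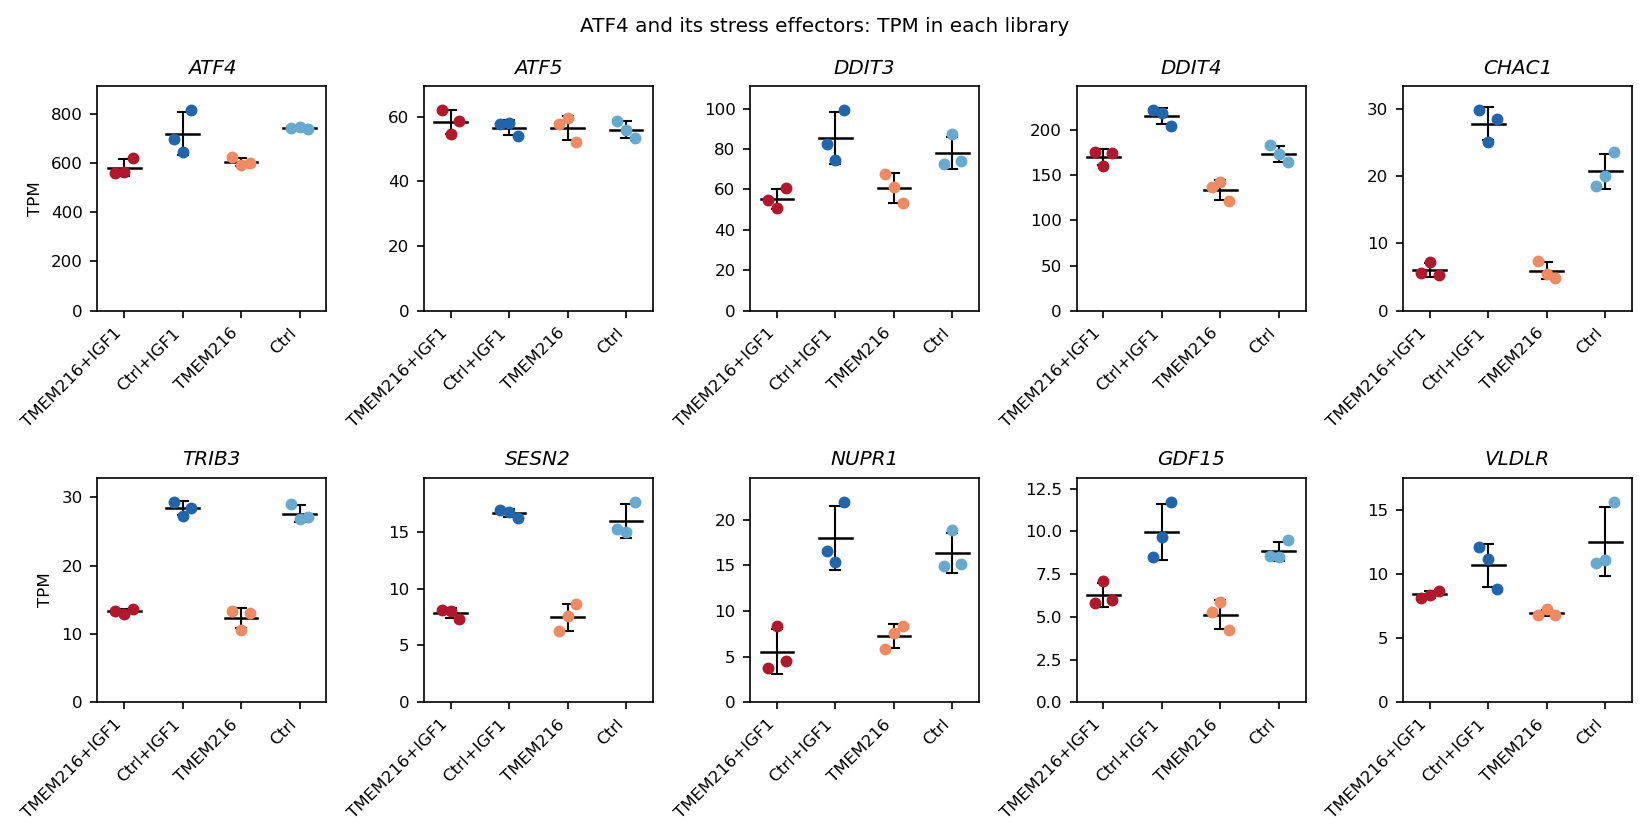
TPM of each of the 10 genes in every library, with 1 panel per gene and the 4 groups along the horizontal axis; points are libraries, and bars are group means with the SD of 3 libraries. Every library of the TMEM216 population lies below every Ctrl library of the same IGF1 condition in 9 of the panels, while the ATF5 points of the 4 groups overlap.

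ATF4, the transcription factor at the head of the set, had 559, 563 and 620 TPM in TMEM216+IGF1 libraries, against 696, 646 and 814 TPM in Ctrl+IGF1 libraries. Without IGF1 it had 623, 592 and 599 TPM in TMEM216 libraries, against 742, 746 and 738 TPM in Ctrl libraries. The TMEM216 libraries were thus lower without overlap in both conditions, at 0.808 of the Ctrl mean with IGF1 and 0.815 without. On the log2(TPM + 1) scale used for every difference below, these were -0.30 and -0.29 (SE 0.081 each, limma). Neither passed an adjusted p of 0.05 (limma), while both did with quantile normalization and neither with median-of-ratios scaling. With 1 library left out, each passed in 1 of 12 fits. ATF4 was the most abundant member, and its differences were the smallest in size after those of ATF5, with VLDLR nearly equal to it with IGF1.

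ATF5, a related bZIP factor whose mRNA is also translated under eIF2 phosphorylation, stood apart from the rest. It had 62.0, 54.5 and 58.5 TPM in TMEM216+IGF1 libraries and 57.7, 58.1 and 53.9 TPM in Ctrl+IGF1 libraries. The values without IGF1 were 57.8, 59.4 and 52.2 TPM in TMEM216 libraries and 58.6, 55.8 and 53.4 TPM in Ctrl libraries. All 4 groups overlapped, and the log2 differences between TMEM216 and Ctrl cells were 0.043 with IGF1 and 0.013 without (SE 0.079 each), and the one with IGF1 turned to -0.015 with quantile normalization and -0.014 with median-of-ratios scaling. ATF5 overlaps NUP62 on the opposite strand in GENCODE v29, and since the strand setting is not given, reads of the 2 genes may not have been told apart.

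DDIT3, which encodes CHOP, a bZIP factor linked to cell death under lasting stress, had 54.9, 50.6 and 60.5 TPM in TMEM216+IGF1 libraries, against 82.6, 74.3 and 99.2 TPM in Ctrl+IGF1 libraries. It had 67.8, 61.0 and 53.1 TPM in TMEM216 libraries, against 72.5, 87.3 and 74.2 TPM in Ctrl libraries. The populations did not overlap in either condition, and the log2 differences were -0.61 with IGF1 and -0.36 without (SE 0.12 each). DDIT3 overlaps MARS and MBD6 on the opposite strand, with the same limit as for ATF5. It also overlaps AC022506.1 on the same strand, a feature of the deposited table that did not pass the filter. Strand cannot tell reads of that pair apart. DDIT4 and VLDLR overlap antisense genes on the opposite strand that are absent from the deposited table.

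CHAC1, an enzyme that breaks down glutathione and is induced through ATF4, showed the largest difference of the set. It had 5.62, 7.22 and 5.34 TPM in TMEM216+IGF1 libraries, against 29.8, 25.02 and 28.5 TPM in Ctrl+IGF1 libraries. It had 7.38, 5.51 and 4.94 TPM in TMEM216 libraries, against 18.6, 20.1 and 23.6 TPM in Ctrl libraries. TMEM216 cells were thus at 0.218 of the Ctrl mean with IGF1 and 0.287 without, at log2 differences of -2.03 and -1.65 (SE 0.15 each), and no library of the populations overlapped. This is the member whose promoter window held the CARE core shown above, a match of letters whose part in the difference was not tested.

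TRIB3, a pseudokinase that binds ATF4 and restrains its activity, had 13.4, 12.9 and 13.7 TPM in TMEM216+IGF1 libraries, against 29.4, 27.4 and 28.5 TPM in Ctrl+IGF1 libraries. It had 13.3, 10.7 and 13.0 TPM in TMEM216 libraries, against 29.1, 26.8 and 27.1 TPM in Ctrl libraries. The populations lay far apart in both conditions, and the log2 differences were -1.04 with IGF1 and -1.11 without (SE 0.093 each). Between IGF1 conditions TRIB3 differed by 0.11 in TMEM216 and 0.039 in Ctrl cells (SE 0.093 each), within the spread of the libraries.

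NUPR1, a small chromatin-associated stress protein, had 3.76, 8.40 and 4.49 TPM in TMEM216+IGF1 libraries, against 16.6, 15.3 and 21.99 TPM in Ctrl+IGF1 libraries. It had 5.86, 7.54 and 8.39 TPM in TMEM216 libraries, against 14.98, 18.8 and 15.1 TPM in Ctrl libraries. The populations did not overlap in spite of the wide spread between libraries, and the log2 differences were -1.58 with IGF1 and -1.07 without (SE 0.23 each).

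SESN2 and DDIT4 both encode brakes on the growth kinase complex mTORC1, SESN2 as a leucine sensor and DDIT4 through the TSC complex. SESN2 had 8.15, 8.05 and 7.35 TPM in TMEM216+IGF1 libraries, against 16.9, 16.8 and 16.3 TPM in Ctrl+IGF1 libraries. It had 6.27, 7.57 and 8.64 TPM in TMEM216 libraries, against 15.3, 14.96 and 17.7 TPM in Ctrl libraries. SESN2 was therefore at 0.471 of the Ctrl mean with IGF1 and 0.469 without, at log2 differences of -0.998 and -1.005 (SE 0.11 each).

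DDIT4 had 176, 160 and 174 TPM in TMEM216+IGF1 libraries, against 222, 219 and 204 TPM in Ctrl+IGF1 libraries. It had 137, 142 and 121 TPM in TMEM216 libraries, against 183, 173 and 165 TPM in Ctrl libraries. The log2 differences between populations were -0.34 with IGF1 and -0.38 without (SE 0.077 each). DDIT4 was the member in which the IGF1 libraries lay above the others in each population, so that TMEM216+IGF1 and Ctrl libraries overlapped.

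GDF15, a secreted stress hormone of the TGF-beta family, had 5.78, 7.09 and 5.96 TPM in TMEM216+IGF1 libraries, against 8.51, 9.65 and 11.7 TPM in Ctrl+IGF1 libraries. It had 5.31, 5.88 and 4.21 TPM in TMEM216 libraries, against 8.56, 8.47 and 9.47 TPM in Ctrl libraries. The populations did not overlap, at log2 differences of -0.59 with IGF1 and -0.69 without (SE 0.14 each).

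VLDLR, a lipoprotein and reelin receptor that is raised by ATF4 under endoplasmic reticulum stress, had 8.15, 8.41 and 8.72 TPM in TMEM216+IGF1 libraries, against 12.1, 11.2 and 8.83 TPM in Ctrl+IGF1 libraries. It had 6.83, 7.28 and 6.80 TPM in TMEM216 libraries, against 10.9, 11.1 and 15.7 TPM in Ctrl libraries. With IGF1 the groups were close to touching, at a log2 difference of -0.30, and without IGF1 they were well apart at -0.75 (SE 0.14 each).

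Without IGF1, 7 of the 10 genes were lower in TMEM216 than in Ctrl cells past an adjusted p of 0.05 (limma, Benjamini-Hochberg over 13071 features): DDIT4, CHAC1, TRIB3, SESN2, NUPR1, GDF15 and VLDLR. Over all features 0.941% were lower by the same threshold. With IGF1, 5 of the 10 were lower, namely DDIT3, CHAC1, TRIB3, SESN2 and NUPR1, against 0.696% of all features. CHAC1, TRIB3, SESN2 and NUPR1 were lower in both, as were 0.367% of all features. Every TMEM216 library was below every Ctrl library in 9 of the 10 genes in each condition, beside 7.69% of all features with IGF1, 15.5% without, and 3.53% in both. These shares stand beside the counts only as a description, since the members were picked with these comparisons in view, and neither the counts nor how they move with the processing is support. The members' median log2 difference was -0.60 with IGF1 and -0.72 without, beside 0.048 and -0.048 over all features. The count of 7 without IGF1 fell to 3 without any 1 of the 3 Ctrl or 3 TMEM216 libraries and to 4 without TMEM216+IGF1 replicate 1 or replicate 3. It was also 4 with no filter, with median-of-ratios scaling or with only the 6 libraries compared, which left 3 with IGF1, and of the 12 fits that left out 1 library, DDIT4 passed without IGF1 in 2, NUPR1 in 3, GDF15 in 4 and VLDLR in 5, and DDIT3 passed with IGF1 in 5.

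The next question was whether IGF1 itself moved these genes, for which earlier results were likewise known. In Ctrl cells, 0 of the 10 genes passed an adjusted p of 0.05 (limma), beside 0.0306% of all features, all 4 of which were lower. At an unadjusted p below 0.05 there were 2 of 10, DDIT4 and CHAC1, beside 6.89% of all features. DDIT4 was higher in every Ctrl+IGF1 library than in every Ctrl library, with means of 215 ± 9.22 and 174 ± 9.01 TPM (SD, n = 3 each) and a log2 difference of 0.31 (SE 0.077, limma adjusted p = 0.659). CHAC1 averaged 27.8 ± 2.48 TPM in Ctrl+IGF1 libraries and 20.7 ± 2.58 TPM in Ctrl libraries (SD, n = 3 each), also without overlap, at a log2 difference of 0.41 (SE 0.15, limma adjusted p = 0.673). All libraries were higher with IGF1 in 2 of 10 members, beside 2.72% of all features.

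In TMEM216 cells, IGF1 again moved 0 of the 10 genes past the threshold (limma), beside 0.0153% of all features. DDIT4 was the single member at an unadjusted p below 0.05, beside 4.77% of all features. It averaged 170 ± 8.89 TPM in TMEM216+IGF1 libraries and 133 ± 10.7 TPM in TMEM216 libraries (SD, n = 3 each), without overlap, at a log2 difference of 0.35 (SE 0.077, limma adjusted p = 0.425). VLDLR was also higher in every TMEM216+IGF1 library, at 8.43 ± 0.289 against 6.97 ± 0.266 TPM in TMEM216 libraries (SD, n = 3 each) and a log2 difference of 0.24 (SE 0.14). All libraries were higher in 6.56% of features. CHAC1 averaged 6.06 ± 1.01 TPM in TMEM216+IGF1 libraries and 5.95 ± 1.28 TPM in TMEM216 libraries (SD, n = 3 each), a log2 difference of 0.029 (SE 0.15).

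Since DDIT4 lay in the same direction in both populations, IGF1 was also compared averaged over them, a comparison added after its values were seen. DDIT4 was higher by 0.33 on the log2 scale (SE 0.055, limma adjusted p = 0.0738), which missed the threshold, and its adjusted p ranged from 0.0625 to 0.32 over the alternatives. By this comparison 0 of 10 members passed, beside 0.0536% of all features, and 1 of 10 did at an unadjusted p below 0.05, beside 5.88%.

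Whether the IGF1 difference was unlike in the populations was tested by the interaction, the difference in TMEM216 cells minus that in Ctrl cells. For 0 of the 10 genes did it pass the threshold (limma), beside 0.0153% of all features, and 1 of 10, VLDLR, had an unadjusted p below 0.05, beside 5.38%. VLDLR had an interaction of 0.45 (SE 0.20), CHAC1 of -0.38 (SE 0.21), NUPR1 of -0.51 (SE 0.32) and DDIT3 of -0.25 (SE 0.18), each at a limma adjusted p of 0.754. All features had a median interaction of 0.107, which was 0.011 with quantile normalization and 0.0052 with median-of-ratios scaling, so values of this size are not read as a direction. Ctrl+IGF1 replicate 3, the library with the high ribosomal share, was the highest of its group for ATF4, DDIT3, NUPR1 and GDF15 and the lowest for ATF5, DDIT4, SESN2 and VLDLR; the part of that share in these values was not tested.

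**Figure D2:**
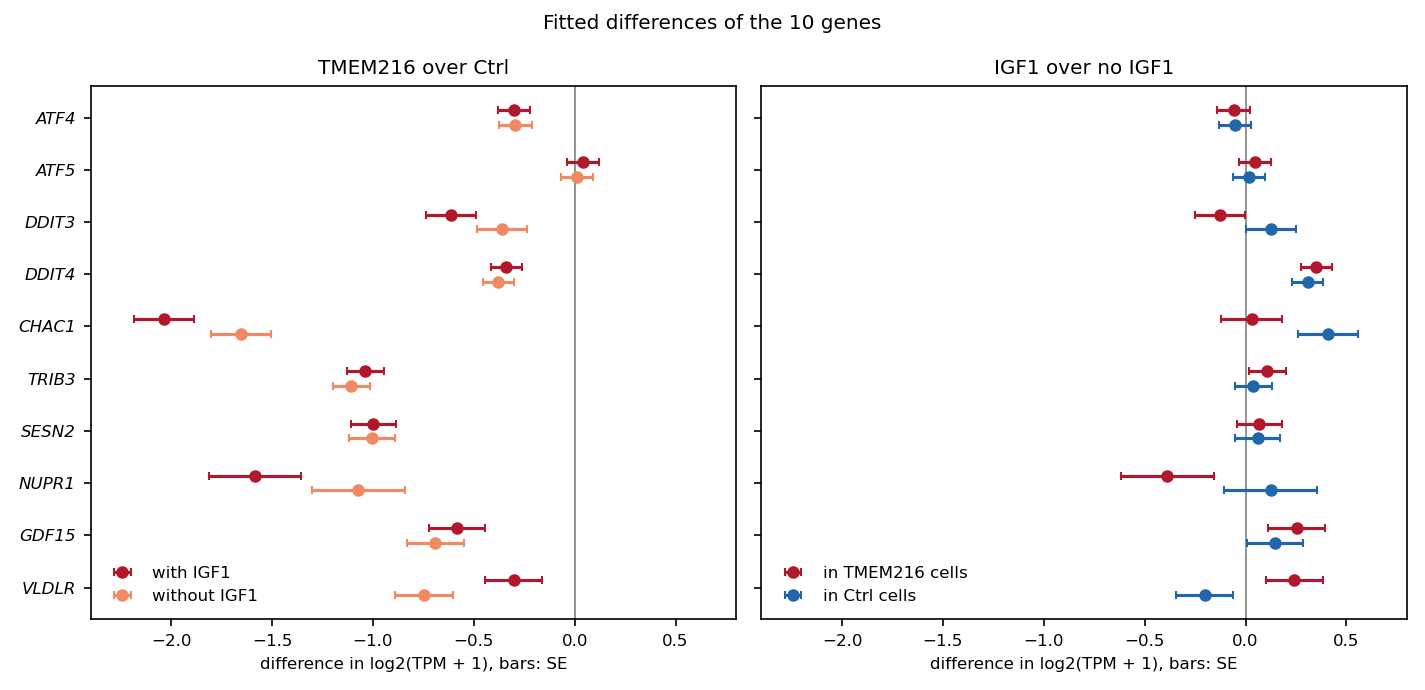
Log2 differences of each of the 10 genes, TMEM216 over Ctrl in the left panel (with and without IGF1) and IGF1 over no IGF1 in the right panel (in TMEM216 and in Ctrl cells); points are limma estimates on log2(TPM + 1) and bars their SE. In the left panel CHAC1 lies farthest below 0 (-2.03 and -1.65) and ATF5 at 0, and in the right panel DDIT4 lies above 0 in both populations (0.35 and 0.31).

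Other genes of the route were taken from lists arranged by their known roles, which were also chosen with earlier results of these data known, so their counts are a description too. Of 10 kinases and co-factors that act on eIF2, 0 passed the threshold between TMEM216 and Ctrl cells in either condition (limma), and 1 with IGF1 and 0 without had an unadjusted p below 0.05, beside 15.8% and 13.2% of all features. EIF2AK3, which encodes the endoplasmic reticulum sensor PERK, averaged 6.76 ± 1.13 TPM in TMEM216+IGF1 and 6.45 ± 0.519 TPM in Ctrl+IGF1 libraries, and 5.98 ± 2.14 TPM in TMEM216 and 5.95 ± 0.759 TPM in Ctrl libraries (SD, n = 3 each). EIF2AK4, which encodes the amino acid sensor GCN2, averaged 42.7 ± 1.65 TPM in TMEM216+IGF1 and 36.1 ± 6.05 TPM in Ctrl+IGF1 libraries, and 42.6 ± 4.85 TPM in TMEM216 and 43.3 ± 0.202 TPM in Ctrl libraries (SD, n = 3 each). Among 12 subunits of eIF2, eIF2B and the eIF2 phosphatases, PPP1R15A, the stress-induced phosphatase subunit GADD34, was the single gene past the threshold. This gene was lower with IGF1, as were 0.696% of all features. It averaged 166 ± 15.4 TPM in TMEM216+IGF1 and 237 ± 5.15 TPM in Ctrl+IGF1 libraries (SD, n = 3 each), a log2 difference of -0.52 (SE 0.095). PPP1R15A is itself known as an ATF4 target, and it missed the threshold when replicate 1 or 2 of TMEM216+IGF1, or replicate 1 or 3 of Ctrl+IGF1, was left out.

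Of 24 tested ATF4-linked genes for amino acid synthesis, transport and charging, 13 were lower past an adjusted p of 0.05 (limma) without IGF1 and 10 with IGF1, beside 0.941% and 0.696% of all features. Their median log2 difference was -0.57 without IGF1 and -0.36 with IGF1. ASNS, the asparagine synthetase, averaged 43.7 ± 2.24 TPM in TMEM216+IGF1 and 87.1 ± 5.91 TPM in Ctrl+IGF1 libraries, and 56.8 ± 1.61 TPM in TMEM216 and 110 ± 5.74 TPM in Ctrl libraries (SD, n = 3 each), at log2 differences of -0.98 and -0.94 (SE 0.075 each). PCK2, the mitochondrial PEP carboxykinase, differed by -1.04 with IGF1 and -1.16 without (SE 0.075 each). CTH, which makes cysteine from cystathionine, differed by -1.28 and -1.33 (SE 0.13 each), and PSAT1, of serine synthesis, by -0.38 and -0.51 (SE 0.068 each). ASNS, PCK2 and CTH passed in both comparisons with any 1 library left out, and PSAT1 missed the threshold with IGF1 when replicate 1 or 3 of TMEM216+IGF1, or replicate 1 of Ctrl+IGF1, was left out.

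Among 11 tested bZIP partners of ATF4, 3 were lower without IGF1 (FOS, JDP2 and MAFF) and 2 with IGF1 (ATF3 and FOS). Over all features, 0.941% without IGF1 and 0.696% with IGF1 were lower past the same threshold. ATF3, a repressor induced by ATF4, averaged 4.07 ± 0.666 TPM in TMEM216+IGF1 and 7.76 ± 0.961 TPM in Ctrl+IGF1 libraries (SD, n = 3 each), a log2 difference of -0.79 (SE 0.15). Without IGF1 the ATF3 difference was -0.59 (SE 0.15), which did not pass. CEBPB, a C/EBP partner, averaged 145 ± 9.83 TPM in TMEM216+IGF1 and 182 ± 13.5 TPM in Ctrl+IGF1 libraries (SD, n = 3 each), which did not pass. JDP2, an AP-1 repressor, averaged 3.70 ± 0.551 TPM in TMEM216 and 21.5 ± 4.51 TPM in Ctrl libraries (SD, n = 3 each), a log2 difference of -2.24 (SE 0.32). With IGF1 it averaged 4.53 ± 1.52 TPM in TMEM216+IGF1 and 11.6 ± 7.11 TPM in Ctrl+IGF1 libraries (SD, n = 3 each). That log2 difference was -1.08 (SE 0.32) and did not pass. With 1 library left out, MAFF passed in 3 of 12 fits, FOS without IGF1 in 8 (not without any 1 Ctrl library or TMEM216 replicate 2) and ATF3 with IGF1 in 9 (not when replicate 1 or 2 of TMEM216+IGF1, or replicate 1 of Ctrl+IGF1, was left out).

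Of 21 tested other stress effectors, 3 were lower without IGF1 (DUSP1, BBC3 and ADM2) and 2 with IGF1 (DUSP1 and ADM2), at median log2 differences of -0.22 and -0.065. Beside these stand 0.941% of all features lower without IGF1 and 0.696% with IGF1. ADM2, a peptide hormone known as an ATF4 target, averaged 1.28 ± 0.177 TPM in TMEM216+IGF1 and 5.40 ± 0.395 TPM in Ctrl+IGF1 libraries (SD, n = 3 each), a log2 difference of -1.49 (SE 0.12). Of 16 genes of the IRE1 and ATF6 branches of the unfolded protein response, XBP1 was lower in both conditions and HERPUD1 with IGF1. These lower calls stand beside the same 0.941% and 0.696% of all features. The chaperones HSP90B1 and CALR were higher with IGF1, beside 0.918% of all features. This list had a median log2 difference of 0.283 with IGF1 and 0.0065 without. With IGF1, 3 of the 16 had a fitted difference below 0, and without IGF1 8 did. An unadjusted p below 0.05 was reached by 9 of 16 with IGF1 and 3 without, beside 15.8% and 13.2% of all features. HSP90B1 averaged 875 ± 38.1 TPM in TMEM216+IGF1 and 599 ± 46.6 TPM in Ctrl+IGF1 libraries (SD, n = 3 each), a log2 difference of 0.55 (SE 0.069). ADM2, DUSP1 and HSP90B1 kept these calls with any 1 library left out, while BBC3 passed in 8 of 12 such fits, XBP1 in 10 without IGF1 and 3 with IGF1, HERPUD1 in 7 and CALR in 3. Of 20 mTORC1 pathway genes and 7 tested relatives and ligands of VLDLR, 0 passed in either condition (limma). At an unadjusted p below 0.05 there was 1 mTORC1 gene in each condition, and 3 of the VLDLR list with IGF1 and 0 without, beside the 15.8% and 13.2% of all features given above.

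**Figure D3:**
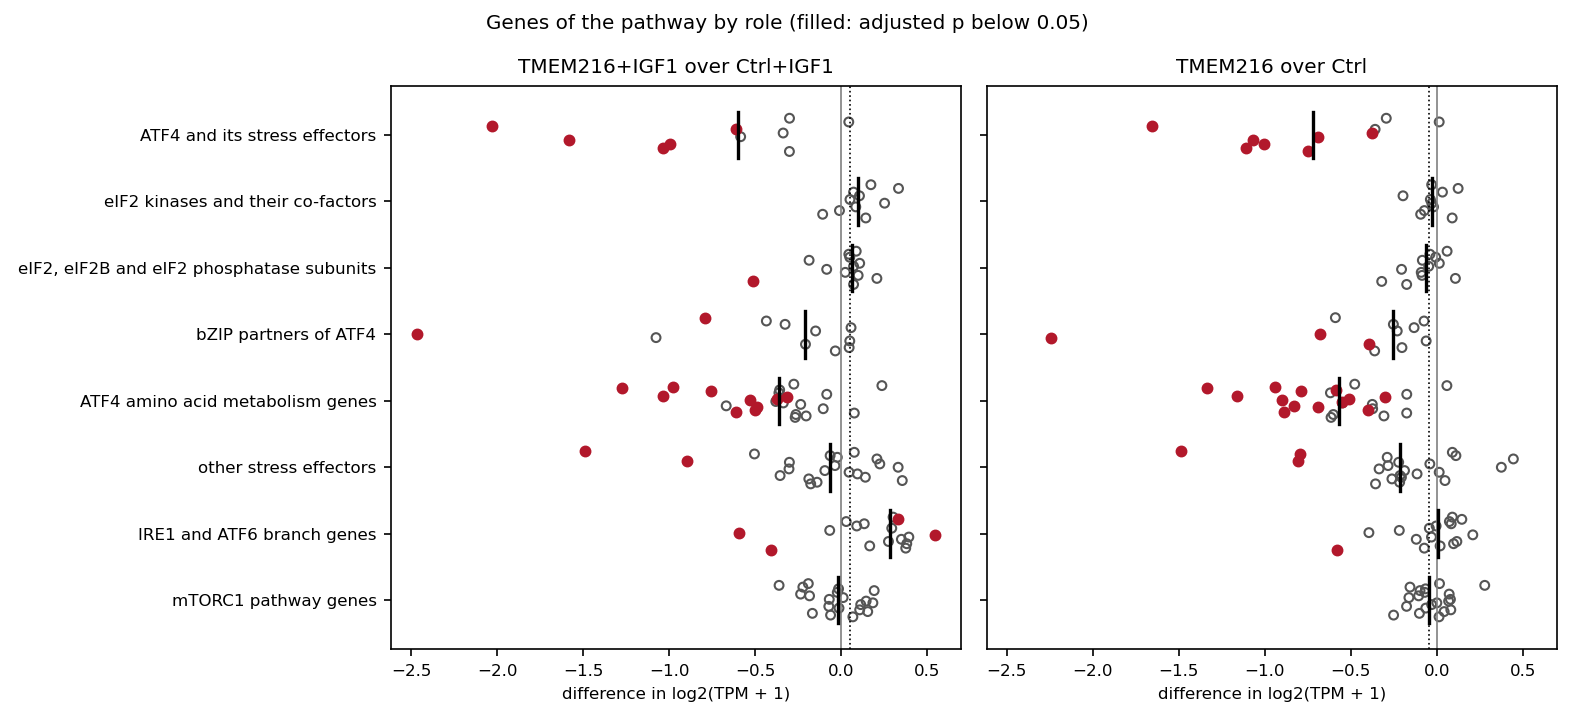
Log2 differences between TMEM216 and Ctrl cells for each tested gene of the members and of the 7 other lists shown, with IGF1 in the left panel and without in the right; points are genes, filled where adjusted p is below 0.05, bars are list medians and dotted lines the medians of all features. The members (medians -0.60 and -0.72) and the amino acid genes (-0.36 and -0.57) lie farthest below 0.

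Few genes of these lists passed the threshold for IGF1. FOS, the AP-1 subunit that growth factors induce, was the single one in TMEM216+IGF1 against TMEM216 cells, beside 0.0153% of all features. It averaged 11.0 ± 0.888 TPM in TMEM216+IGF1 and 64.3 ± 10.6 TPM in TMEM216 libraries (SD, n = 3 each), a log2 difference of -2.43 (SE 0.11, limma adjusted p = 5.24e-07). In Ctrl cells FOS differed by -0.645 (SE 0.109, limma adjusted p = 0.158), which did not pass. Of the 16 IRE1 and ATF6 branch genes, 7 had an unadjusted p below 0.05 for IGF1 in TMEM216 cells, beside 4.77% of all features. There 1 of the 16 had a fitted difference below 0. In Ctrl cells 0 of the 16 had such a p, beside 6.89% of all features. Averaged over both populations, the comparison added after values were seen, FOS (-1.54, SE 0.077, limma adjusted p = 1.93e-06) and ASNS were lower with IGF1. Over all features, 0.0536% passed in this average. For FOS this average joins unlike differences of the populations. ASNS differed by -0.35 (SE 0.053, limma adjusted p = 0.0426), and its adjusted p ranged from 0.0206 to 0.179 over the alternatives. With 1 library left out ASNS passed in 2 of 12 fits, those without replicate 2 or 3 of Ctrl+IGF1.

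Each gene's log2(TPM + 1) was centred and scaled over the 12 libraries, and the 10 members were then averaged. Tested features with a gene symbol, other than the members and TMEM216, were compared with this mean. The gene most like it was IL6, with a Pearson r of 0.991. Next came SFN at 0.978, STAP2 at 0.973, and PACSIN3 and TSC22D3 at 0.966 each. IL6 averaged 114 ± 2.05 TPM in TMEM216+IGF1 and 221 ± 10.7 TPM in Ctrl+IGF1 libraries, and 92.9 ± 3.23 TPM in TMEM216 and 195 ± 4.30 TPM in Ctrl libraries (SD, n = 3 each). Most like ATF4 alone were RBM38 at 0.949, SERINC2 at 0.947 and CTXN1 at 0.942. These r are descriptions over libraries that share the same 4 groups. Among the members, r with the members' own mean was highest for CHAC1 at 0.976 and TRIB3 at 0.97, and was -0.085 for ATF5. Each member was itself part of that mean.

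**Figure D4:**
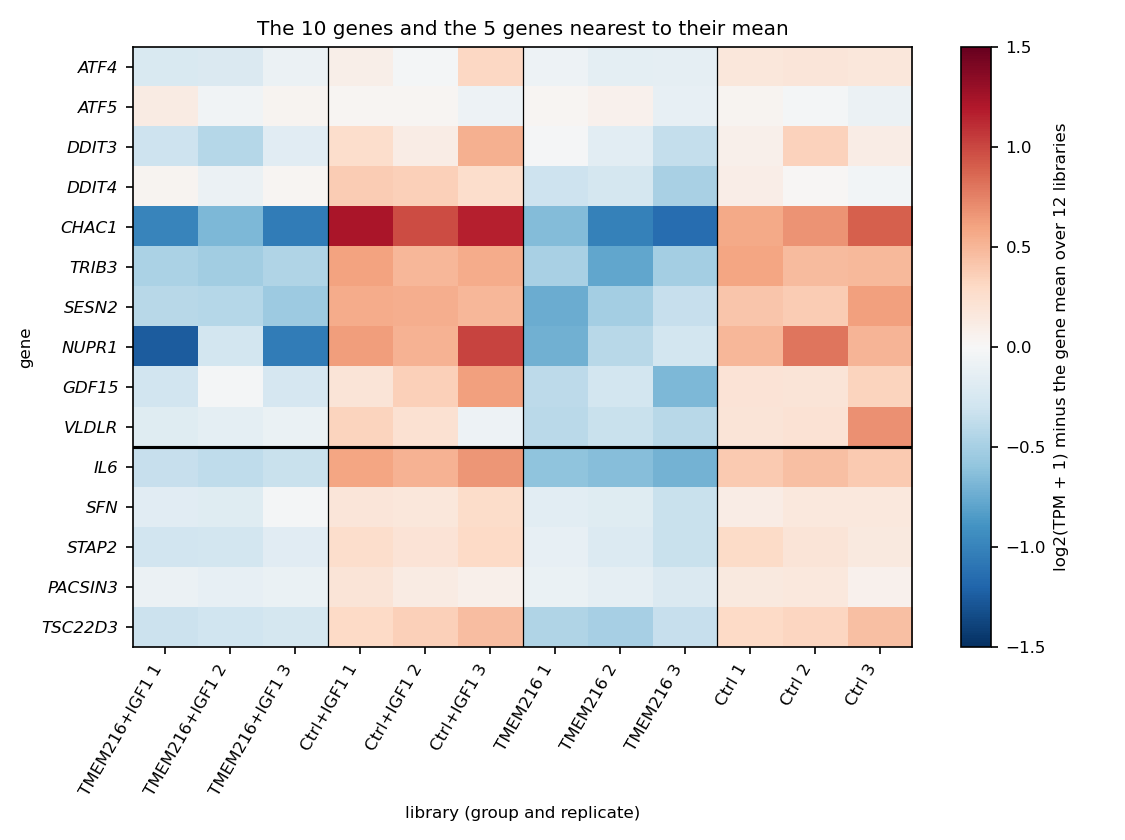
Level of the 10 genes and of the 5 genes most like their mean (rows) in the 12 libraries (columns), as log2(TPM + 1) minus the gene's mean over all libraries; red is above and blue below that mean. CHAC1 shows a strong contrast between the TMEM216 and Ctrl columns (log2 differences of -2.03 and -1.65), and ATF5 shows none (0.043 and 0.013).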

How the data were processed

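The authors deposited TPM for 21574 features in 12 libraries, made with an Illumina TruSeq RNA kit per the labels. The tools HISAT2, StringTie and RSEM are named in the submitters' processing notes, with build and annotation not given in the sources used here. Deposited TPM were put on the log2(TPM + 1) scale with no other scaling, which understates differences of low genes. Features reaching a TPM of 1 in 3 libraries (13071) entered a limma fit (version 3.58.1 in R 4.3.3, with the data.table package 1.17.8) of 4 group means, with moderated variances and a trend, tested on simulated data. Adjusted p is two-sided, by Benjamini-Hochberg over all features tested, with a threshold of 0.05. The members and all lists were chosen with earlier results of these data known. Named list genes are up to 4 with the smallest p in any comparison, plus ATF3, CEBPB, PPP1R15A, EIF2AK3, EIF2AK4, ASNS and PSAT1; genes alike are the 5 nearest to the members' mean and the 3 nearest to ATF4. Promoter windows came from RefSeq (GRCh38.p14) and gene overlaps, by name, from GENCODE v29. Figures used matplotlib 3.10.9 in Python 3.11.15. The alternatives were: no filter or a TPM of 5 in its place, a pseudocount of 0.1, median-of-ratios or quantile scaling, dropping the trend, fitting just the 6 libraries compared, a replicate block, and leaving libraries out. One leukocyte marker is not reported here.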

Additional observations from a re-analysis of the deposited data

Results flagged for a closer look

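FOS was the single gene named above whose IGF1 difference was unlike in the populations by the test of the interaction, at -1.79 on the log2 scale (SE 0.15, limma adjusted p = 0.000965). It averaged 11.0 ± 0.888 TPM in TMEM216+IGF1 and 64.3 ± 10.6 TPM in TMEM216 libraries, and 65.5 ± 4.47 TPM in Ctrl+IGF1 and 103 ± 4.16 TPM in Ctrl libraries (SD, n = 3 each). FOS is not a member of the set.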

How the results depend on the processing

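Without IGF1, the 7 members past the threshold became 4 with no filter, with median-of-ratios scaling and with only the 6 libraries compared, and 3 with the replicate block, and ranged from 3 to 8 with 1 library left out. With IGF1 the 5 became 3 with only the 6 libraries compared and ranged from 4 to 7. The cause was not tested, though only 6 libraries leave fewer samples to estimate the spread. CHAC1, TRIB3 and SESN2 passed in both comparisons in all 12 fits that left out a library and all 9 other settings; NUPR1 passed with IGF1 in all 12 and in 8 of 9, and without IGF1 in 3 of 12 and 2 of 9. Same-numbered replicates did not deviate together (correlations of -0.286 to 0.165, with 1, 1 and 2 of 6 pairs over 0.1 for replicates 1, 2 and 3), so the numbers are not taken as a pairing; the replicate block moved the features past the threshold to 77, beside 143, without IGF1 and to 140, beside 211, with IGF1. Only the 6 libraries compared gave 49 features in each, and leaving out 1 library gave 43 to 273 and 84 to 462. Leaving out Ctrl+IGF1 replicate 3 and TMEM216 replicate 1 together gave 288 features without IGF1, and 7 and 5 members. These were not all the same genes: without IGF1 ATF4 passed and NUPR1 did not, and with IGF1 DDIT4 passed and DDIT3 did not. Of the features past the threshold without IGF1, 20 of 143 were higher, against 60 of 183 with quantile normalization and 55 of 176 with median-of-ratios scaling. In the IGF1 and interaction comparisons 0 members passed under any alternative, while the few features past the threshold over all genes numbered 0 to 11.

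Reversed signs were all in differences that passed no threshold, though not all stayed near 0, as EIF2AK3 without IGF1 went from -0.039 to 0.22. With quantile normalization these were ATF5 with IGF1 (-0.015), EIF2AK3 (0.040 without IGF1, -0.00026 with), EIF2AK4 without IGF1 (0.012), and the interactions of ATF4 (0.068), ATF5 (-0.070), DDIT4 (-0.0016), TRIB3 (-0.039), SESN2 (-0.13) and GDF15 (-0.044). With median-of-ratios scaling they were ATF5 with IGF1 (-0.014), EIF2AK3 (0.0049 without IGF1, -0.00022 with), EIF2AK4 without IGF1 (0.021), IGF1 in Ctrl cells for ATF4 (0.036), and the interactions of ATF5 (-0.078), DDIT4 (-0.068), TRIB3 (-0.036) and SESN2 (-0.095). Without Ctrl+IGF1 replicate 3 and TMEM216 replicate 1 they were ATF5 (-0.0048), EIF2AK3 (0.22) and EIF2AK4 (0.039) without IGF1, EIF2AK3 with IGF1 (-0.0014), IGF1 in Ctrl cells for NUPR1 (-0.023), IGF1 in TMEM216 cells for SESN2 (-0.040), and the interactions of ATF4 (0.11) and SESN2 (-0.12). With 1 library left out, the ranges that crossed 0 were, for TMEM216 against Ctrl, ATF5 -0.025 to 0.068, EIF2AK3 -0.25 to 0.22 and EIF2AK4 -0.12 to 0.039 without IGF1, and ATF5 -0.0012 to 0.090 and EIF2AK3 -0.064 to 0.135 with IGF1. For IGF1 in Ctrl cells they were ATF4 -0.15 to 0.021, ATF5 -0.016 to 0.0505 and NUPR1 -0.023 to 0.23, and in TMEM216 cells ATF5 -0.0082 to 0.094, CHAC1 -0.085 to 0.17 and SESN2 -0.040 to 0.16. For the interaction they were ATF4 -0.080 to 0.087, ATF5 -0.025 to 0.078, DDIT4 -0.025 to 0.087, TRIB3 -0.025 to 0.12, SESN2 -0.10 to 0.10 and GDF15 -0.0083 to 0.22; with both libraries just named left out, TRIB3 was 0.127 and GDF15 0.243. TPM holds no counts, so sequencing depth and its part in the spread of low genes such as GDF15 and VLDLR are unknown.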
